A study of Mus musculus with 6 samples.

Results

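The intestinal lineage transcription factors described here are 8 mouse genes, Cdx1, Cdx2, Hnf4a, Hnf4g, Klf4, Klf5, Gata4 and Gata6. They were taken by name from the GENCODE annotation of GRCm38, where all 8 were found among 55341 gene symbols, of which 21924 are protein-coding. ChIP-seq was performed on C57BL/6 (wt) colonic epithelial organoids, cultured either without added cytokine (wt) or with TNFα at 40 ng/ml for 3 weeks (wt+TNFα). Each condition had 1 library for H3K4me3, 1 for H3K27me3 and 1 input, so there is no replicate and no difference below was tested. The number of mice or cultures behind a library is not in the labels, and the labels give both conditions the same genotype with no added allele. Because the organoids are a bulk sample, a mark present in fewer cells and a weaker mark in each cell cannot be told apart.

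CDX1 and CDX2 are homeobox proteins that specify the intestine along the gut, and CDX2 is needed to keep the epithelium from taking on a foregut identity. HNF4α and HNF4γ are related nuclear receptors that drive enterocyte genes, KLF4 and KLF5 are zinc finger factors linked with differentiated and with crypt cells respectively, and GATA4 and GATA6 are zinc finger factors that divide the gut between them, with GATA4 mostly proximal and GATA6 reaching into the colon. H3K4me3 marks promoters that are active or poised, H3K27me3 is laid down by Polycomb repressive complex 2 over silenced developmental genes, and unusually wide H3K4me3 domains are a known feature of genes that define a cell type.

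The sequences around 4 of the starts described below are shown, namely those for which an entry was found. The RefSeq promoter table (GRCm38.p6) gave 300 bases, 250 before and 50 from the start, for 3 of the 6 genes that were looked up. Hnf4a has an entry for each of its main starts, the upstream P2 promoter at chr2:163506607-163506906 on the plus strand and the downstream P1 promoter at chr2:163546905-163547204 on the plus strand. The Klf4 entry lies at chr4:55532426-55532725 and the Cdx2 entry at chr5:147307200-147307499, both on the minus strand. No sequence is shown for Hnf4g, Klf5 or Gata4, and Cdx1 and Gata6 were not looked up. Capitals mark matches, on either strand, to the GC box GGGCGG, the CACCC box CCACCC bound by KLF-type zinc fingers, and the GATA motif NGATAA.
Cdx2: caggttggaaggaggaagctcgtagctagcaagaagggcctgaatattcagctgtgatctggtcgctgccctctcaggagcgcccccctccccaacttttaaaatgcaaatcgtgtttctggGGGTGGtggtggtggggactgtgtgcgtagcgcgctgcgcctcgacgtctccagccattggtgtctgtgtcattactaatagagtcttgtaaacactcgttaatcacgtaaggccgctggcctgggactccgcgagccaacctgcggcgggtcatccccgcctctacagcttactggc
Hnf4a P2: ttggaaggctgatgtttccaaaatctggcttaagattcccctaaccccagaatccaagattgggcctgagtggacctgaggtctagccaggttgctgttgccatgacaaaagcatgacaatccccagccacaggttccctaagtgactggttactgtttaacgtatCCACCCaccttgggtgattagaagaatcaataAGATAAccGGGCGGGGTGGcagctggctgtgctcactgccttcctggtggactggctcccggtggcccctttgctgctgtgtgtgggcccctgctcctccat
Hnf4a P1: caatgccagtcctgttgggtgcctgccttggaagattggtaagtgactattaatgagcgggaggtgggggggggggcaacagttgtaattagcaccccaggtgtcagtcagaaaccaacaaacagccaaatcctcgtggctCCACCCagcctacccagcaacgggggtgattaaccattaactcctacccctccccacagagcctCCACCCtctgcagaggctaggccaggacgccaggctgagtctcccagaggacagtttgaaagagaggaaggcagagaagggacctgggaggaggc
Klf4: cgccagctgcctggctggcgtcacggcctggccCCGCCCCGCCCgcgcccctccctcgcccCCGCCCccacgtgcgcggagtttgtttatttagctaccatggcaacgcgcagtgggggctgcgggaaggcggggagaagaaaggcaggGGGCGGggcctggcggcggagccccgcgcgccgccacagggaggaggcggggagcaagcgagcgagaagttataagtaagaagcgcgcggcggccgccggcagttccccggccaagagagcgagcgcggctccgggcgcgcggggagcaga

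The Klf4 sequence held 4 GC boxes, with the pair at bases 34 to 44 sharing 1 base, and it had 40 CpG dinucleotides and a GC content of 74.3%. The Cdx2 sequence had 18 CpG and the Hnf4a sequences 4 each, against a median of 7 over the table. Hnf4a P2 held 2 CACCC boxes, of which the one on the opposite strand shared its first base with a GC box, and 1 GATA match from 52 to 47 bases before the start. Hnf4a P1 also held 2 CACCC boxes, and Cdx2 held 1. Of the 32851 promoters of this length in the table, 35.7% held a GC box, 31.5% a CACCC box and 25.3% a GATA match, so such matches are common. No match was found in the 4 sequences for the TATA box TATAAA (13.6% of all promoters), the CDX motif TTTATNG (10.9%), the HNF4 motif CAAAGTCCA (0.475%), the HNF1 motif GTTAATNAT (0.801%) or the NF-κB motif GGGNNTTCC (5.82%). All 300 bases of the Klf4 and Hnf4a P2 sequences lay under an H3K4me3 peak in both conditions. For Cdx2 300 bases were covered in wt and 245 in wt+TNFα, and for Hnf4a P1 216 and 178.

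A promoter was defined as 1000 bp on each side of every annotated transcript start, with overlapping stretches joined, and a mark was called when a peak covered at least 1 base of it. In wt, 8 of 8 lineage factors had an H3K4me3 peak at the promoter, where 50.5% of protein-coding genes had one. In wt+TNFα the number was 7 of 8 against 51.2%. H3K27me3 was called at 1 of 8 in each condition, at Gata4 both times, while the share of protein-coding genes was 21.7% in wt and 29.5% in wt+TNFα. Gata4 was also the 1 gene with both marks in wt (5.18% of protein-coding genes), and 0 of 8 had both in wt+TNFα (7.64%).

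The peak lists themselves differed in ways that bear on every comparison between the conditions. The H3K4me3 lists were of similar length, with 11552 peaks in wt and 11894 in wt+TNFα. The wt+TNFα H3K27me3 list held 60540 peaks against 30594, and covered 2.25 times the autosomal length and 125 times the X chromosome length of the wt list. The name of the wt+TNFα H3K27me3 list alone does not mention a spike-in. Whether the H3K27me3 libraries were matched apart from TNFα could not be settled from the labels or lists, and such a difference and that of TNFα cannot be told apart in the H3K27me3 comparisons below. None of the 8 genes lies on a sex chromosome. No list held a peak over the first stretch of chromosomes 1, 7, 8 and 14, and 131 of 21924 protein-coding genes lie before the first peak of their chromosome in any list. None of the 8 genes is among them, and whether the lists are complete there was not tested. Hnf4g lies at the edge, as the first chromosome 3 peak of any list is its own wt+TNFα H3K4me3 peak. H3K4me3 was found at the promoters of 10 of 10 colonic epithelial markers in wt and 9 of 10 in wt+TNFα, where Krt20 was without a peak, and at 0 of 19 markers of fibroblasts, immune cells, endothelium, neurons and glia in either condition. The study's reporting summary lists more reads for wt+TNFα than for wt in H3K4me3 and in the inputs, and nearly equal reads in H3K27me3. The part of depth in the differences below was not tested.

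The H3K4me3 peaks of the lineage factors were wide. The widest promoter peak had a median of 4143.5 bp over the 8 genes in wt and 4580 bp over the 7 genes with a peak in wt+TNFα, while the medians over all protein-coding genes with a peak were 1559 bp and 1678 bp. A peak of at least 3000 bp was found at 6 of 8 genes in wt and in wt+TNFα, namely Cdx1, Cdx2, Hnf4a, Klf4, Klf5 and Gata6, where 3.64% and 4.73% of protein-coding genes had one. Among protein-coding genes with an H3K4me3 peak, the shares were 7.22% in wt and 9.23% in wt+TNFα. Hnf4g and Gata4 fell short of 3000 bp. Among the 11066 protein-coding genes with a wt peak, Gata6 ranked 5, Klf5 21 and Klf4 30 by width, followed by Cdx1 at 147, Hnf4a at 296 and Cdx2 at 305. The plot of widths by gene shows the distance of these 6 genes from the genome-wide medians.

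**Figure D1:**
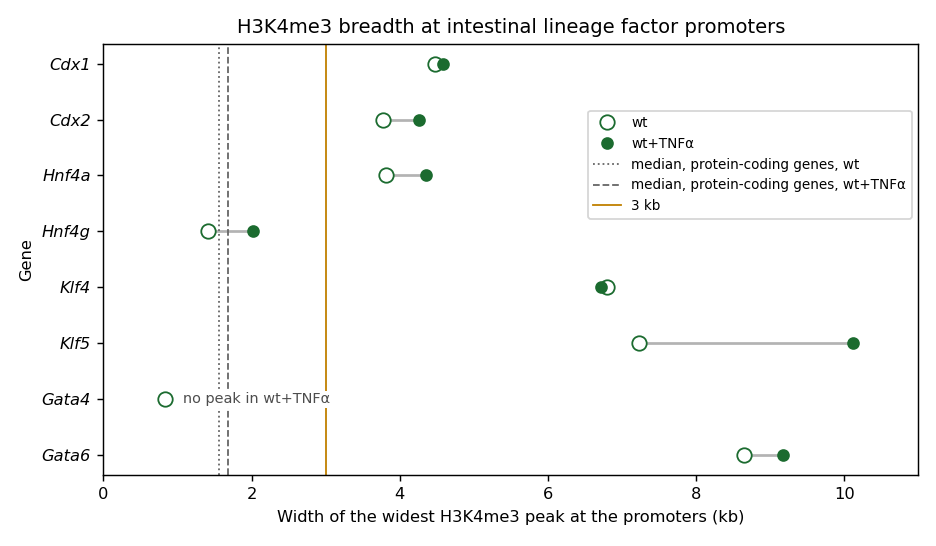
Width in kb of the widest H3K4me3 peak at the promoters of each lineage factor in wt (open circles) and wt+TNFα (filled circles), 1 library each. The dotted and dashed lines give the medians of protein-coding genes in wt and wt+TNFα and the solid line 3 kb. Klf4, Klf5 and Gata6 lie furthest to the right, Klf5 shows the longest line between the conditions, and Gata4 has no filled circle.

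The widest peak was wider in wt+TNFα than in wt at 6 of the 7 genes with a peak in both conditions, where 75.7% of protein-coding genes with a peak in both were wider. The ratio of widths, wt+TNFα over wt, had a median of 1.13 over the 7 genes and ran from 0.989 at Klf4 to 1.43 at Hnf4g. Over 10903 protein-coding genes the median ratio was 1.07, with 0.880 and 1.44 as the 5th and 95th percentiles. Hnf4g and Klf5 (1.40) thus lay near the upper end of the genome-wide range and the other 5 well within it. Bases of H3K4me3 present in wt+TNFα alone were found in the promoters of 3 of 8 genes (40.9% of protein-coding genes), and bases present in wt alone in 4 of 8 (21.1%). These counts turned on the promoter size and on small overlaps, with 6 and 5 genes at 2000 bp on each side, 7 and 7 at 5000 bp, and 1 and 1 when at least 200 bp had to overlap, and the Gata6 gain was 1 bp. Apart from the loss at Gata4, the stretches within promoters covered 280 bp or less. For whole peaks, 1 of 8 promoters had H3K4me3 in wt and none in wt+TNFα (0.743% of protein-coding genes), and 0 of 8 had it in wt+TNFα only (1.49%).

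Cdx1, the homeobox gene expressed in crypts, lies on chromosome 18 from 61018862 to 61036199 on the minus strand and has 1 annotated start. Its H3K4me3 peak was 4472 bp wide with a fold enrichment of 52.4 over the local background in wt, and 4580 bp with a fold enrichment of 57.6 in wt+TNFα. These widths were at the 98.8th and 98.6th percentile of their lists, and the enrichments at the 97.1st and 99.3rd. In wt the peak ran from 1547 bp upstream of the start to 2924 bp downstream, and in wt+TNFα from 1683 bp to 2896 bp, so the edges differed by 136 bp and 28 bp. Inside the gene the wt peak covered 524 bp of exon and 2401 bp of intron. A small peak of 433 bp beyond the 3′ end of the gene was listed in wt only and an intronic peak of 344 bp in wt+TNFα only.

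Cdx2, the master homeobox gene of the intestine, occupies 6466 bp of chromosome 5 from 147300805 to 147307270 on the minus strand, and its peak was placed almost wholly over the gene. The peak was 3777 bp wide in wt and 4265 bp in wt+TNFα. The enrichment was 51.9-fold and 50.2-fold, at the 96.7th and 96.1st percentile of the lists. It began 312 bp upstream of the start in wt and 174 bp upstream in wt+TNFα, and reached 3464 bp and 4090 bp downstream. The upstream edge was therefore closer to the start in wt+TNFα, with 138 bp of the promoter covered in wt alone, while the downstream edge lay further into the gene. A separate wt peak of 369 bp starting 3971 bp downstream overlapped the part added in wt+TNFα. Near the 3′ end, a peak of 1051 bp was listed in wt and a peak of 569 bp, at a different position beyond the gene, in wt+TNFα. When peaks within 1000 bp of each other were joined, the Cdx2 width ratio turned from 1.13 to 0.917.

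Hnf4a, which encodes the nuclear receptor HNF4α, extends over 66103 bp of chromosome 2 from 163506808 to 163572910 on the plus strand. Its P2 and P1 promoters, 40380 bp apart, drive isoforms that differ at the N terminus. Both were marked in both conditions. At P2 the peak was 2211 bp wide in wt and 2135 bp in wt+TNFα, and was enriched 34.9-fold and 35.2-fold, at the 74.4th and 71.8th percentile of the lists. At P1 it was 3815 bp and 4351 bp wide, with fold enrichments of 29.6 and 31.8, at the 62.7th and 63.1st percentile. P1 thus had the wider peak and P2 the slightly higher enrichment in each library. The P1 peak reached 3615 bp downstream of the Hnf4a-201 start in wt and 4189 bp in wt+TNFα, and so took in the start of Hnf4a-204, 2895 bp downstream of P1, which had no peak of its own. The 280 bp gained at the promoters of Hnf4a all belong to this downstream edge.

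Hnf4g, the paralogue that encodes HNF4γ, lies on chromosome 3 from 3508030 to 3658052 on the plus strand and had the narrowest peak of the genes marked in both conditions. The peak at the upstream start, Hnf4g-201, was 1408 bp wide in wt and 2013 bp in wt+TNFα, at the 50.2nd and 72.3rd percentile of the lists. Its fold enrichment was 16.3 in wt and 15.1 in wt+TNFα, at the 29.2nd and 24.6th percentile of the lists. Both edges lay further out in wt+TNFα, by 194 bp upstream and 411 bp downstream. The start of Hnf4g-202, the transcript that the annotation ranks as principal, lies 126120 bp further downstream. It had neither H3K4me3 nor H3K27me3 in either condition, and all marking of this gene was at the start of the other transcript.

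Klf4, a zinc finger factor of goblet cell and surface differentiation, is a gene of 5324 bp on chromosome 4 from 55527143 to 55532466 on the minus strand. Its H3K4me3 peak was 6795 bp wide in wt and 6720 bp in wt+TNFα, and the enrichment was 23.5-fold and 31.5-fold. It ran from 1706 bp upstream to 5088 bp downstream of the start in wt and from 1739 bp to 4980 bp in wt+TNFα, and thus spanned nearly the whole gene. Klf4 was the 1 gene whose peak was narrower in wt+TNFα, while its fold enrichment stood at the 47.1st percentile of the wt list and the 62.3rd of the wt+TNFα list.

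Klf5, the zinc finger factor of proliferating crypt cells, lies on chromosome 14 from 99298691 to 99315036 on the plus strand and showed the largest difference in bases of any of the 7 genes. Its main peak was 7228 bp wide in wt and 10122 bp in wt+TNFα. In rank among protein-coding genes this was 21 of 11066 in wt and 4 of 11229 in wt+TNFα. The upstream edge was nearly fixed, at 1442 bp and 1435 bp before the start, while the downstream edge lay 5785 bp into the gene in wt and 8686 bp in wt+TNFα. In wt a separate intronic peak of 650 bp lay 6858 bp to 7507 bp downstream of the start. The wt+TNFα peak covered this stretch, the 1072 bp between it and the main peak, and 1179 bp beyond it. The fold enrichment was 54.1 in wt and 43.1 in wt+TNFα, and its place in the list was lower in wt+TNFα, at the 88.0th percentile against the 97.8th. A second peak upstream of the gene was 1687 bp wide in wt and 1958 bp in wt+TNFα. With peaks within 1000 bp joined, the Klf5 width ratio was 1.3.

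The GATA genes stood at opposite ends of the list. Gata6, on chromosome 18 from 11052064 to 11085635 on the plus strand, had a peak of 8649 bp in wt and 9178 bp in wt+TNFα, ranking 5 and 7 among protein-coding genes. Its fold enrichment was 32.4 in wt and 42.0 in wt+TNFα, at the 68.9th and 86.2nd percentile of the lists. The peak extended more than 4 kb to each side of the Gata6-201 start, from 4398 bp upstream to 4250 bp downstream in wt and from 4467 bp to 4710 bp in wt+TNFα, and covered the 5 most upstream annotated starts. On the opposite strand the non-coding gene 1010001N08Rik starts 60 bp from Gata6-201 under the same peak, and the signals of the pair cannot be told apart. A further start, Gata6-205, annotated as a retained intron, had a small separate peak of 862 bp in wt and 760 bp in wt+TNFα. It was enriched 7.16-fold and 7.87-fold, at the 7.79th and 9.27th percentile of the lists.

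**Figure D2:**
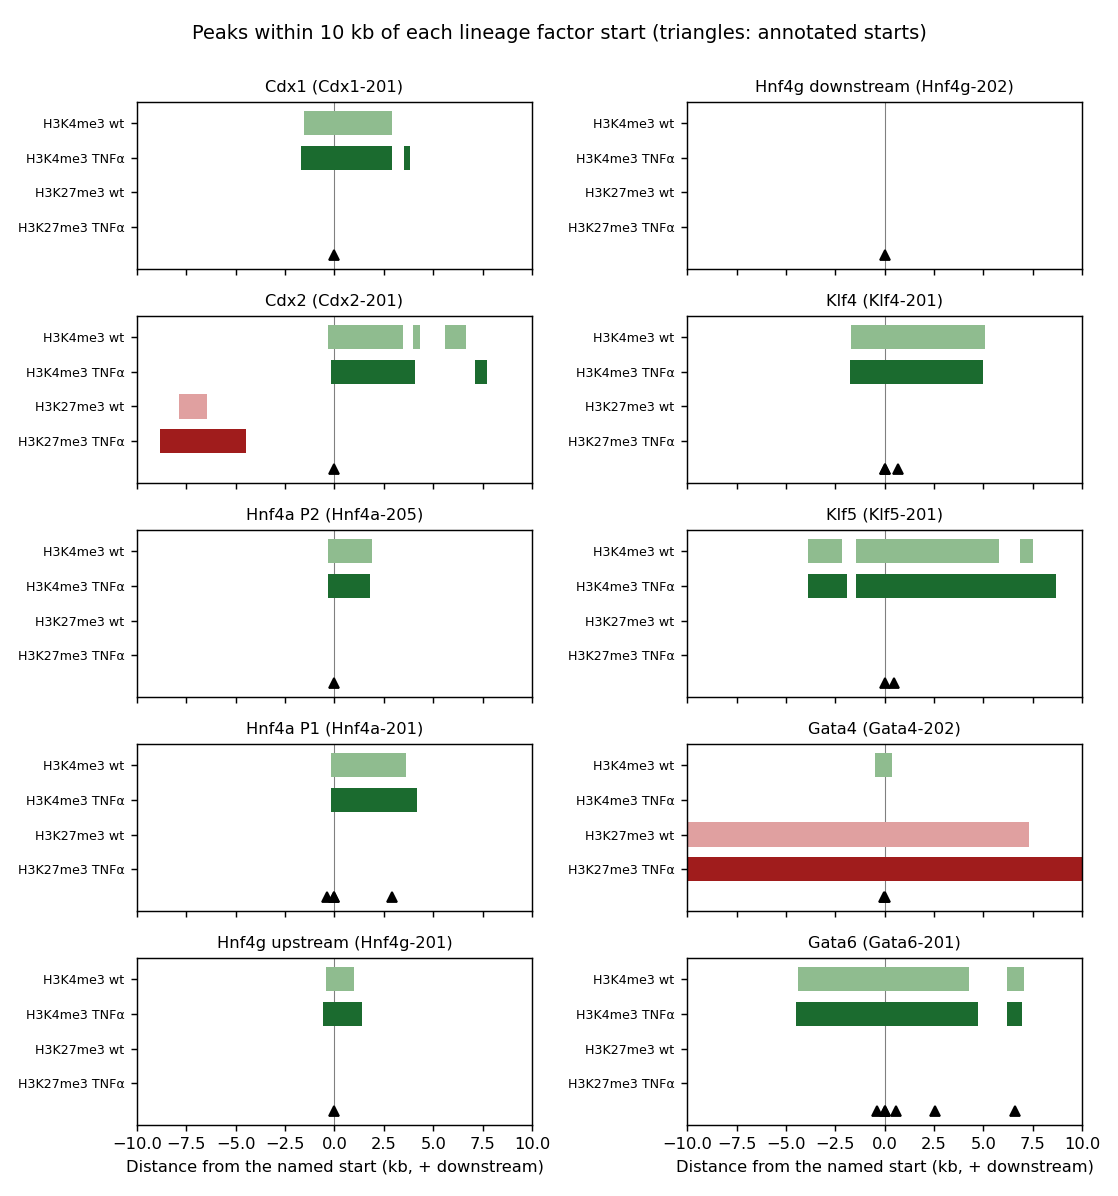
Peaks within 10 kb of 10 named starts of the 8 genes, drawn by distance in kb from the start with downstream to the right. In each panel the rows are H3K4me3 in wt and wt+TNFα (light and dark green) and H3K27me3 in wt and wt+TNFα (light and dark red), and triangles mark annotated starts. The Klf5 and Cdx2 peaks reach further downstream in wt+TNFα, the downstream Hnf4g start has no bar, and Gata4 is the only panel with H3K27me3 over a start.

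Gata4, on chromosome 14 from 63198922 to 63271692 on the minus strand, had the smallest H3K4me3 peak of the 8 genes in wt and none in wt+TNFα. The wt peak was 826 bp wide, with a fold enrichment of 7.02 that exceeded 7.56% of the peaks in its list, and ran from 473 bp upstream to 352 bp downstream of the Gata4-202 start. H3K27me3 covered the same bases. In wt an H3K27me3 domain of 37663 bp, enriched 4.66-fold, extended from 30357 bp upstream to 7305 bp downstream of this start, and its enrichment was above that of 99.9% of the peaks in the list. In wt+TNFα the corresponding peak was 51763 bp wide and reached from 41347 bp upstream to 10415 bp downstream. Its fold enrichment of 5.43 was above that of 99.97% of the peaks in its list. Most of the added upstream stretch was already marked in wt by a separate peak of 8925 bp, and the 2 wt peaks were 1737 bp apart. At the downstream edge 3110 bp were covered in wt+TNFα alone. A second wt+TNFα domain of 31715 bp, enriched 2.48-fold (94.1st percentile of the list), covered the 3′ part of the gene, where wt had separate peaks of 5474 bp, 6761 bp and 1918 bp. The map of the Gata4 locus shows the wider and more continuous H3K27me3 of wt+TNFα and the H3K4me3 peak present in wt alone.

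**Figure D3:**
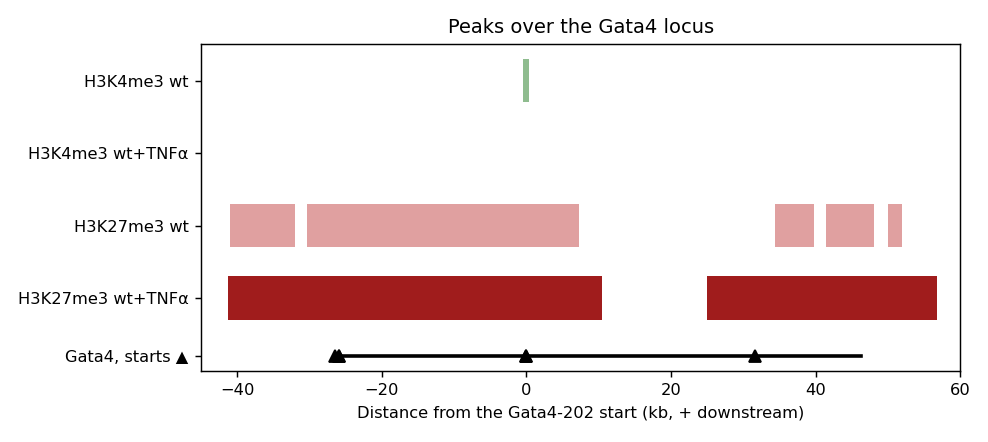
H3K4me3 (green) and H3K27me3 (red) peaks over Gata4 in wt (light) and wt+TNFα (dark), by distance in kb from the Gata4-202 start. The black line is the gene and triangles are its annotated starts. The start at the right lies outside the wt H3K27me3 peaks and inside the 31715 bp peak of wt+TNFα.

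Gata4 has 3 separate promoters. The distal one, used by Gata4-204, Gata4-205 and Gata4-206 and 25876 bp or more upstream of Gata4-202, was covered by H3K27me3 over 100% of its bases in both conditions and had no H3K4me3. The promoter of Gata4-201 and Gata4-202 was likewise covered over 100% in both, and was covered by H3K4me3 over 40.8% in wt and 0% in wt+TNFα. The internal promoter of Gata4-203, 31641 bp downstream, had H3K27me3 over 0% of its bases in wt and 100% in wt+TNFα. Over all its promoters Gata4 was thus covered over 69.7% in wt and 100% in wt+TNFα, and over the gene body 60.7% and 79.9%. These 2001 bp of the internal promoter made Gata4 the 1 of 8 genes with H3K27me3 in wt+TNFα alone at some promoter base (20.6% of protein-coding genes), and 0 of 8 had H3K27me3 in wt alone (5.22%). The H3K4me3 peak of wt was weak, and with only the peaks above the median −log10 q of each list it was not counted. With 1 start per gene, the most upstream, Gata4 had neither both marks in wt nor a gain of H3K27me3, and with whole peaks subtracted the gain was not counted either.

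The other 7 genes had no H3K27me3 over any base of the promoter or the gene body in either condition. They differed in how near the mark came, measured from the edge of the promoter window, which lies 1000 bp from the start. Cdx2 had the nearest peak, 5460 bp away in wt and 3467 bp away in wt+TNFα, and this peak was 1436 bp wide in wt and 4383 bp in wt+TNFα. The wt peak was weak, with a −log10 q of 0.688 and an enrichment above that of 11.2% of its list, while the wt+TNFα peak had a −log10 q of 4.44. For Cdx1 the distances were 21451 bp and 9608 bp. At Hnf4a they were 46276 bp and 45473 bp, and at Klf4 71805 bp and 64030 bp. Gata6 (188631 bp and 86697 bp), Klf5 (981557 bp and 338131 bp) and Hnf4g (1574382 bp and 117093 bp) were the most remote. The Hnf4g distances are to downstream peaks only, since no list held a peak upstream of its own. The nearest peak lay closer in wt+TNFα at all 7, in a list that covered 2.25 times the autosomal length.

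Over the gene and 25 kb on each side, H3K27me3 covered 10.6% at Cdx2 in wt and 40.7% in wt+TNFα. At Cdx1 the shares were 1.94% and 9.75%, and at Gata4 53.3% and 74.2%. The remaining 5 genes had 0% in both conditions. The median over protein-coding genes was 0.593% in wt and 5.43% in wt+TNFα, and 47.8% and 33.3% of them had 0%. Within 100 kb on each side, Cdx2 was at 21.2% in wt and 49.5% in wt+TNFα, whereas Cdx1 had the larger share in wt, with 30.5% against 21.1% in wt+TNFα. At this distance Gata4 was at 34.7% and 56.3%, Hnf4a at 7.38% and 9.09%, Klf4 at 0.777% and 5.46%, and Hnf4g, Klf5 and Gata6 were below 1% in both. The medians over protein-coding genes were 2.84% in wt and 10.1% in wt+TNFα. With promoters of 5000 bp on each side, the flanking peak entered the Cdx2 window in wt+TNFα and covered 5.34% of it.

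**Figure D4:**
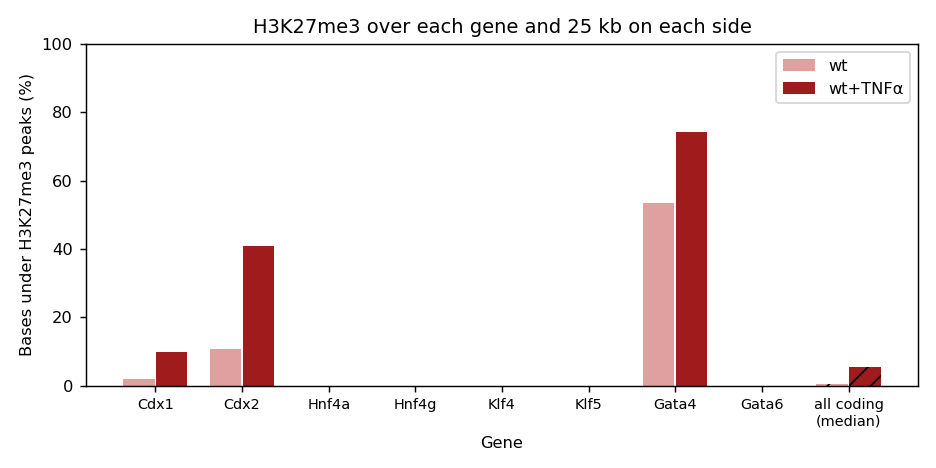
Share of bases in % under H3K27me3 peaks over each gene and 25 kb on each side in wt (light bars) and wt+TNFα (dark bars), 1 library each. The hatched bars give the median over all protein-coding genes. Bars are seen at Cdx1, Cdx2 and Gata4, with 40.7% at Cdx2 and 74.2% at Gata4 in wt+TNFα, and the other 5 genes are at 0%.

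The 8 genes have 14 separate promoters, and alternative starts were unevenly marked. H3K4me3 was present at 11 of 14 in wt and 10 of 14 in wt+TNFα, against 26.4% and 26.9% of the separate promoters of protein-coding genes. H3K27me3 was present at 2 of 14 in wt and 3 of 14 in wt+TNFα, against 14.3% and 21.6%, all of them at Gata4. The promoters without H3K4me3 in either condition were the downstream one of Hnf4g and the distal and internal ones of Gata4.

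The ratio of observed to expected CpG, computed from the GRCm38 genome over each separate promoter, was highest at Klf5 (0.867) and Klf4 (0.824). It was 0.725 at Cdx2, 0.715 at Cdx1 and 0.672 at the main Gata6 promoter. Over protein-coding genes the median was 0.604 for promoters with H3K4me3 in wt and 0.221 for those without. The marked promoters of the HNF4 genes had lower ratios than the median marked promoter, at 0.285 for Hnf4a P2, 0.343 for P1, 0.219 for Hnf4a-204 and 0.340 for Hnf4g-201, although the Hnf4a P1 peak was at the 97.6th percentile of width in wt. The Gata4-201 and Gata4-202 promoter, with 0.602, was near the median of promoters with H3K4me3, and the Hnf4g and Gata4 promoters without H3K4me3 were between 0.201 and 0.210.

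More of each wide peak lay downstream of the start than upstream. From the most upstream start that the widest peak covered, the downstream part made up 91.7% of the peak in wt and 95.9% in wt+TNFα at Cdx2, and 94.8% and 96.3% at Hnf4a. It was 80.0% and 85.8% at Klf5, 74.9% and 74.1% at Klf4, 65.4% and 63.3% at Cdx1, and 53.8% and 55.8% at Gata6. Gata6 was thus close to symmetrical and Cdx2 and Hnf4a almost one-sided. The median over the 8 genes in wt was 73.0%, near the 72.0% of all protein-coding genes and the 73.7% of those with a peak of at least 3000 bp.

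Related genes and partner factors were measured in the same way. Of 20 CDX, KLF and GATA family relatives, 11 had H3K4me3 in each condition and 9 and 10 had H3K27me3 in wt and wt+TNFα. The widest H3K4me3 peak among them was that of Klf9, with 4116 bp in wt and 4197 bp in wt+TNFα, below those of Klf4, Klf5 and Gata6. Cdx4, Gata1 and Klf8 were covered by H3K27me3 over 41.2%, 0% and 7.82% of promoter bases in wt, and over 100% each in wt+TNFα. All 3 lie on the X chromosome, where the H3K27me3 lists differed most.

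Of 20 endodermal and intestinal partner factors, 17 had H3K4me3 in wt and 18 in wt+TNFα, with a median width of 4752 bp and 4818.5 bp over those marked. Wide peaks were therefore shared with these partners, and 13 and 14 of the 20 had a peak of at least 3000 bp. Isx, an intestine-specific homeobox gene known as a target of CDX2, had no H3K4me3 in wt and one of 5035 bp, enriched 19.8-fold, in wt+TNFα.

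Factors of the foregut and other endodermal organs showed the converse marking, with H3K4me3 at 2 of 10 in each condition and H3K27me3 at 7 of 10 in wt and 9 of 10 in wt+TNFα. Sox17 was left out of these counts, since it lies before the first peak of chromosome 1 in every list. The widest H3K4me3 peak was that of Hhex, with 1864 bp in wt and 1817 bp in wt+TNFα. Pdx1, the pancreatic and duodenal homeobox gene that neighbours Cdx2 in the ParaHox cluster, was covered by H3K27me3 over 0% in wt and 100% in wt+TNFα at its promoter, with H3K4me3 peaks of 1342 bp and 829 bp.

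Among 20 known target genes of these factors, 7 had H3K4me3 in wt and 8 in wt+TNFα, and 2 and 6 had H3K27me3. The widest peak was that of Vil1, which encodes the microvillus protein villin, with 3409 bp in wt and 3342 bp in wt+TNFα. Car1 (1094 bp), a colonic carbonic anhydrase, and Guca2a (1559 bp), which encodes guanylin, had a peak in wt+TNFα only. Krt20, a keratin of differentiated epithelium, had a peak of 504 bp in wt only. H3K27me3 covered 0% of the promoters of the apolipoprotein genes Apoa1 and Apoa4 in wt. In wt+TNFα the covered shares were 50.7% and 100%.

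**Figure D5:**
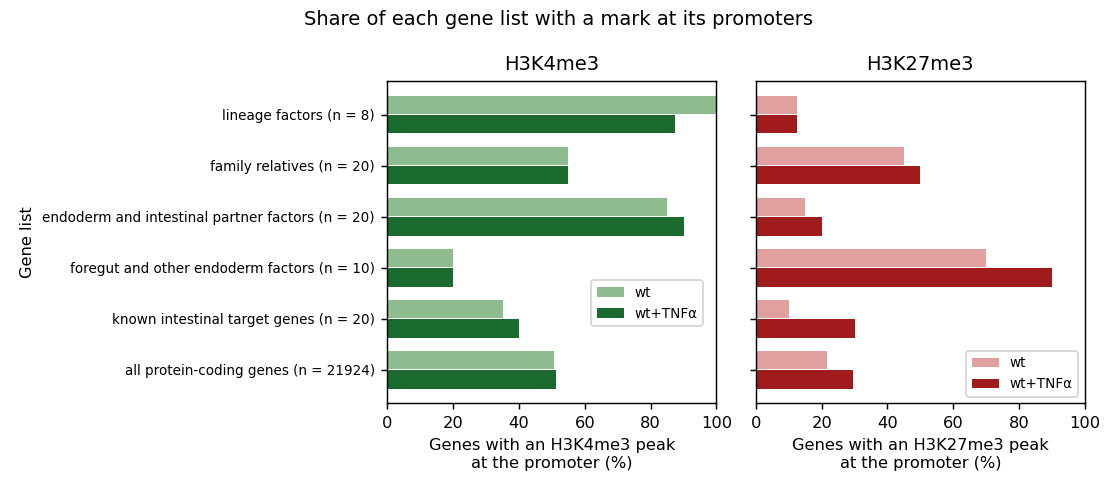
Share in % of the genes of each list with an H3K4me3 peak (left, green) or an H3K27me3 peak (right, red) at the promoter in wt (light bars) and wt+TNFα (dark bars). The lineage factors and their partners have the longest H3K4me3 bars and the foregut factors the longest H3K27me3 bars, and the lowest pair gives all 21924 protein-coding genes.

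The likeness of each lineage factor to 51 relatives, partners and foregut factors was taken as the sum, over the 4 libraries, of the absolute differences in H3K4me3 width in kb and in the covered fraction of H3K27me3. Cdx2 and Hnf4a were both nearest to Klf13, at 0.205 and 0.253, a gene with peaks of 3824 bp and 4107 bp and no H3K27me3. Cdx1 was nearest to Sox9 at 0.526 and Hnf4g to Klf1 at 0.382. Klf4, Klf5 and Gata6 were nearest to Foxa1, with peaks of 7217 bp and 7484 bp, but at the larger distances of 1.19, 2.65 and 3.13, and Elf3 was almost as near to Klf4 at 1.21. No single gene stood out for Gata4. Cdx4, which lies on the X chromosome, was at 1.111, and 11 genes without H3K4me3 and with H3K27me3 over 100% of the promoters in both conditions, among them Gata2 and Gata5, were at 1.13.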

How the data were processed

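H3K4me3 and H3K27me3 peaks of wt and wt+TNFα colonic organoids were analysed, 1 deposited list per condition and mark. Per the labels, the authors aligned reads with BWA (2.2) to GRCm38/mm10, handled alignments with SAMtools (1.11) and called peaks against the input with MACS2 (2.1.0), as narrow peaks for H3K4me3 and broad peaks for H3K27me3. The study's reporting summary names another MACS2 version, and the name of every list except wt+TNFα H3K27me3 mentions a spike-in. The deposited fold enrichment is a ratio of ChIP signal to local background, the deposited q-values are given as −log10, and beyond the SPMR option of MACS2 (signal scaled by sequencing depth) a scaling between lists is not given in the sources used here, so fold enrichments are printed as deposited for each list, and their percentile within the list, rather than the fold, was used to set the conditions side by side. The score that the authors' peak caller wrote for each deposited peak was not used. The files hold no read counts, and depth per library is therefore unknown from them. The labels state the depth aimed at, 40000000 reads in the input and H3K4me3 libraries and 60000000 in the H3K27me3 libraries.

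Promoters covered 1000 bp on each side of each transcript start of the GENCODE annotation (141767 transcripts), joined where they overlapped, and 1 base of overlap counted. Bases unique to a condition were found by subtracting one list from the other. The 8 genes and all gene lists were chosen with earlier results of these data known. All separate promoters of the 8 genes were named, and from each other list the gene with the widest wt+TNFα H3K4me3 peak, genes with H3K4me3 in 1 condition, genes whose H3K27me3 share differed by at least 50 percentage points, and the gene of the nearest pattern. Some genes that the rule names are not reported here. Python 3.11.15, numpy 2.4.6 and matplotlib 3.10.9 were used. The steps were tested on simulated data with 400 planted changes of each of 4 kinds among 2000 genes, of which 100% were recovered. Each simulated gene had 1 separate promoter, and peaks were present or absent as a whole. Small shifts of peak edges and genes with several promoters were therefore not covered by this check. With 1 library per condition and mark, no error, p-value or test can be given. Alternatives were other promoter sizes, overlaps, start sets, peak filters and ways to measure width.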

Additional observations from a re-analysis of the deposited data

How the results depend on the processing

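Of 124 recomputed values of the 18 counts and medians, 106 stayed within 1.5 times the reported value. With promoters of 5000 bp on each side, H3K27me3 was at 2 genes in wt+TNFα, both marks at 1, H3K4me3 was gained by base at 7 and lost at 7, and H3K27me3 gained at 2. With 2000 bp, H3K4me3 was gained at 6. An overlap of at least 200 bp left 1 gene gaining and 1 losing H3K4me3. With 1 start per gene, both marks were at 0 genes in wt, H3K4me3 was gained at 1 and lost at 2, and H3K27me3 gained at 0. With peaks above the median −log10 q, both marks were at 0 genes in wt, and H3K4me3 was gained at 1 and lost at 2. With whole peaks subtracted, H3K4me3 was gained at 0 and lost at 1, and H3K27me3 gained at 0. Of the 85 values for single genes, 83 stayed within 1.5 times, the Cdx2 width ratio reversed to 0.917 when peaks within 1000 bp were joined, and the Cdx2 H3K27me3 share in wt+TNFα became 5.34% with 5000 bp. Joining took in the separate wt peak of 369 bp beside Cdx2, and the 5000 bp window took in the flanking H3K27me3 peak. The cause of the other moves was not tested. The counts of genes with H3K4me3 and with peaks of at least 3000 bp stayed within 1.5 times under every alternative run. No paired analysis was possible because each condition has 1 library per mark.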
